A study of Mus musculus with 15 samples.

Results

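Mouse hearts with 1 knockout allele of Adamts16 were set against hearts with 1 H355Q allele, in which a histidine of the encoded protease is changed to glutamine. Whole embryonic hearts of stage E14.5 had been profiled by RNA sequencing in 15 libraries. The comparison uses the 4 libraries labelled Adamts16+/- (knockout-allele libraries 1 to 4) and the 4 labelled Adamts16+/H355Q (H355Q libraries 1 to 4), and the 7 WT libraries served as reference. Both mutant genotypes are heterozygous, so every heart compared kept 1 WT allele. Genes entered if their mean was at least 0.5 FPKM over the 15 libraries, which left 15172 of the 55335 genes in the deposited table. FPKM counts sequenced fragments per kilobase of gene, scaled to the depth of each library. The labels give neither the strain, the sex, the litter nor the lesion behind the knockout allele, and they do not say whether a library is 1 heart or a pool. The p-values therefore measure the spread between libraries, which may be technical. In whole hearts, fewer cells of a type and less RNA per cell cannot be told apart.

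ADAMTS16 belongs to the ADAMTS family, secreted zinc metalloproteases with thrombospondin repeats that cut proteins of the extracellular matrix, and fibronectin is a known ADAMTS16 substrate. At midgestation the cushions that become the valves are mesenchyme in a matrix rich in hyaluronan and proteoglycans, and the mesenchyme lays down fibronectin and collagens as the leaflets form. The ventricular wall is growing over the same days, with sarcomeres already beating and mitochondria still maturing. A null allele removes protease, whereas a missense allele leaves a protein with 1 changed residue.

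Adamts16 mRNA did not separate the alleles. It stood at 0.0897, 0.235, 0.0635 and 0.0747 FPKM in the knockout-allele libraries, at 0.0677, 0.123, 0.125 and 0.101 in the H355Q libraries, and at 0.0324, 0.0495, 0.0543, 0.0647, 0.167, 0.138 and 0.235 in WT libraries 1 to 7. The groups overlapped, and the highest values, in knockout-allele library 2 and WT library 7, were the same to 3 digits. The difference was 0.02 on log2(FPKM + 0.5), knockout allele minus H355Q, with a two-sided exact permutation p of 0.943 (n = 4 and 4, smallest possible p 0.0286) and a limma 95% interval of -0.20 to 0.24. At these levels the added 0.5 FPKM outweighs the value itself, so differences are compressed on this scale. The interval therefore does not bound the fold change of the mRNA. The levels of the 8 mutant libraries correspond to about 19.4 to 76.8 fragments each. All 15 levels are under the 0.5 FPKM filter, and so close to the detection limit they check neither allele's label. The gene lies at chr13:70727802-70841811 on the minus strand (GRCm38). The reference codon that the H355Q allele changes is shown in capitals within 51 coding bases of transcript ENSMUST00000080145, as the sequence that tells the alleles apart and that an FPKM table cannot see. The codon, CAT for histidine, is in exon 7 of 23, at chr13:70793202-70793204.
Adamts16 H355Q codon: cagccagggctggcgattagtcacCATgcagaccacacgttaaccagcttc

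Several facts of the libraries touch every result that follows. Implied depth, read from the steps between low FPKM values, was 38 to 48 M (M for 1000000) fragments in the knockout-allele libraries and 51 to 59 M in the H355Q libraries, without overlap, against 42.4 to 56.1 M in WT. On the first principal component, 27.6% of the variance, the knockout-allele libraries lay between 11.8 and 18.7 and the H355Q libraries between -23.1 and -8.49, while WT spanned -36.1 to 19.6 and so covered both. Cardiomyocyte, endothelial, epicardial and valve markers were present in every library. Thymus markers, a tissue that lies on the heart, were raised in knockout-allele libraries 1 and 2, H355Q libraries 2 and 4 and WT library 7 (mean log2 level 0.72, 1.04, 2.40, 1.62 and 2.57, against -0.31 to -0.11 in the others). Xist, transcribed from the inactive X, and the Y-linked Ddx3y were both well above 0 in 5 of the 8 mutant libraries, H355Q library 2 had Xist without Ddx3y, and knockout-allele library 1 and H355Q library 4 had Ddx3y with almost no Xist. Both were also well above 0 in WT libraries 1, 2, 3 and 7. Libraries with both may hold hearts of both sexes, which the labels do not say and which was not tested. The part of depth, stray tissue and sex in the results was not tested beyond the alternatives named below.

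Between the alleles, 1524 of 15172 genes (10%) passed the test, 867 higher with the knockout allele (5.71%) and 657 lower (4.33%). The test was limma on log2(FPKM + 0.5), all 15 libraries in 1 fit, with a call at a Benjamini-Hochberg adjusted p under 0.05, and every adjusted p below comes from it. With each library rescaled to an equal FPKM sum, the split was 992 higher and 377 lower. Differences were mostly small: 1110 of the called genes differed by less than 1.5-fold and 75 by at least 2-fold, and the median over all genes tested was -0.02. Of the called genes, 1480 showed no overlap between the 4 knockout-allele and the 4 H355Q libraries. Non-overlap was itself common, with 12.6% of all genes wholly higher and 13.1% wholly lower. Leaving out single libraries moved the count strongly, to 379, 375 and 546 without knockout-allele library 1, 2 or 3, to 633, 285, 1010 and 683 without H355Q library 1, 2, 3 or 4, and to 2485 without WT library 7. With the mean level of red cell genes and globins as a covariate no gene passed the limma adjusted threshold, against 1710 at an unadjusted p under 0.05 (4382 in the reported fit). That level was 4.05 to 4.39 with the knockout allele and 3.70 to 4.03 with H355Q, without overlap, and 3.62 to 4.15 in WT. The fit can part the covariate from the allele only through the spread within groups, so the differences are assigned to neither. Under that covariate the list medians used below were 0.18 for matrix genes (0.19 in the reported fit), 0.18 for signalling genes (0.19), -0.31 for the respiratory chain (-0.41) and -0.34 for ribosomal proteins (-0.44). A rule on fold, level and list membership picked out 132 called genes, of which 42 kept the call whichever library was left out, and the account below rests mainly on those.

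**Figure D1:**
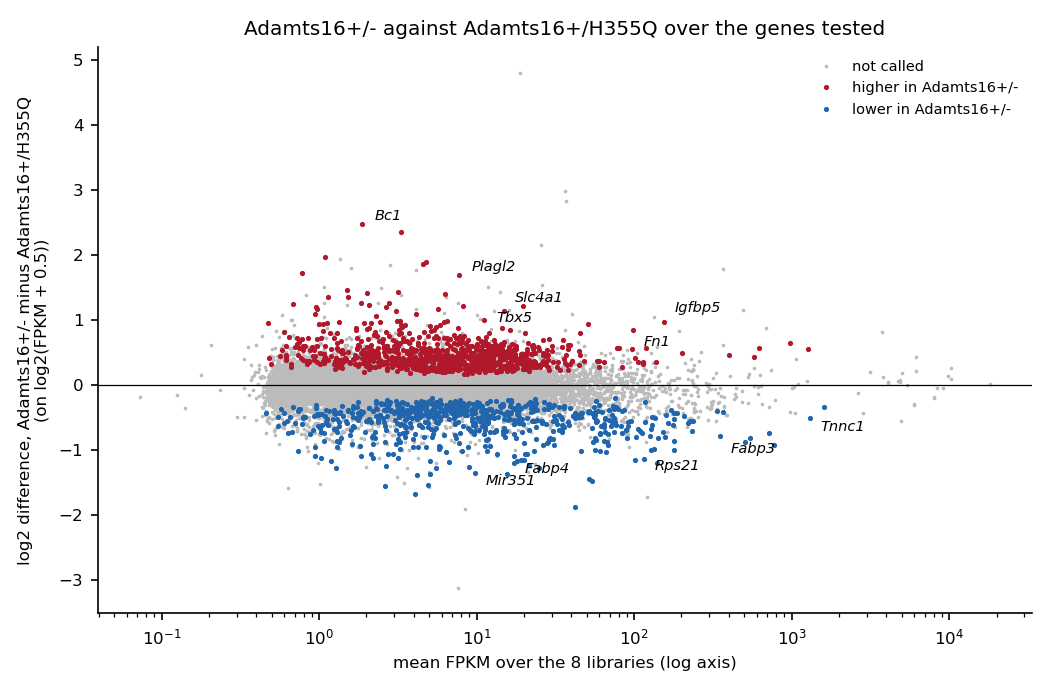
Log2 difference between the alleles (knockout allele minus H355Q, on log2(FPKM + 0.5)) against mean FPKM over the 8 libraries on a log axis, 1 point a gene. The 867 genes called higher (red) and 657 called lower (blue) mostly lie within 1 log2 unit of 0, with Bc1 the highest called point at 2.48, and Fabp3, Tnnc1 and Rps21 among abundant genes called lower.

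The WT range gave a place to each difference. Among the 867 genes higher with the knockout allele, 215 (24.8%) had all 4 knockout-allele libraries outside the range of the 7 WT libraries with H355Q overlapping it, 126 had only H355Q outside, and 523 (60.3%) had neither outside. Among the 657 lower genes the figures were 96 (14.6%), 42 (6.39%) and 517 (78.7%). Over all genes tested, 3.40% had the 4 knockout-allele libraries above WT and 2.39% below, and 0.863% had the H355Q libraries above and 1.79% below. On that background, 5.49% had only the knockout-allele libraries outside and 2.35% only the H355Q libraries. For most genes that differed between the alleles, neither allele thus lay wholly outside a WT range that was itself wide. Those with only 1 allele outside had it more often for the knockout allele, a share that depends on scaling: under median of ratios scaling the counts were 125 against 72 among higher genes and 113 against 80 among lower ones.

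In 3 genes the alleles lay outside the WT range on opposite sides, knockout allele above and H355Q below (0.0198% of genes tested). Usp10, a deubiquitinase of the p53 and stress granule pathways, stood at 6.18, 5.996, 5.51 and 5.51 FPKM with the knockout allele and at 3.68, 3.25, 3.91 and 3.30 with H355Q, around a WT range of 4.19 to 5.23. It was 1.56-fold higher (log2 difference 0.64 ± 0.08 SE, limma adjusted p = 0.00421). For Fbxl7, a substrate-binding subunit of an SCF ubiquitin ligase, the values were 3.22, 3.51, 3.60 and 3.19 FPKM against 1.98, 1.89, 2.14 and 2.18, with WT at 2.28 to 3.18. The 4 knockout-allele libraries were all above WT and the 4 H355Q libraries all below it (log2 difference 0.61 ± 0.10 SE, limma adjusted p = 0.00862). Dusp7, a phosphatase that switches off ERK, was at 7.35, 7.73, 8.38 and 7.20 FPKM with the knockout allele. Its H355Q values, 5.20, 5.15, 5.18 and 5.17, were nearly equal to one another and just under the lowest WT library (WT 5.21 to 7.07; log2 difference 0.52 ± 0.08 SE, limma adjusted p = 0.00807). All 3 genes kept the call without any 1 library.

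**Figure D2:**
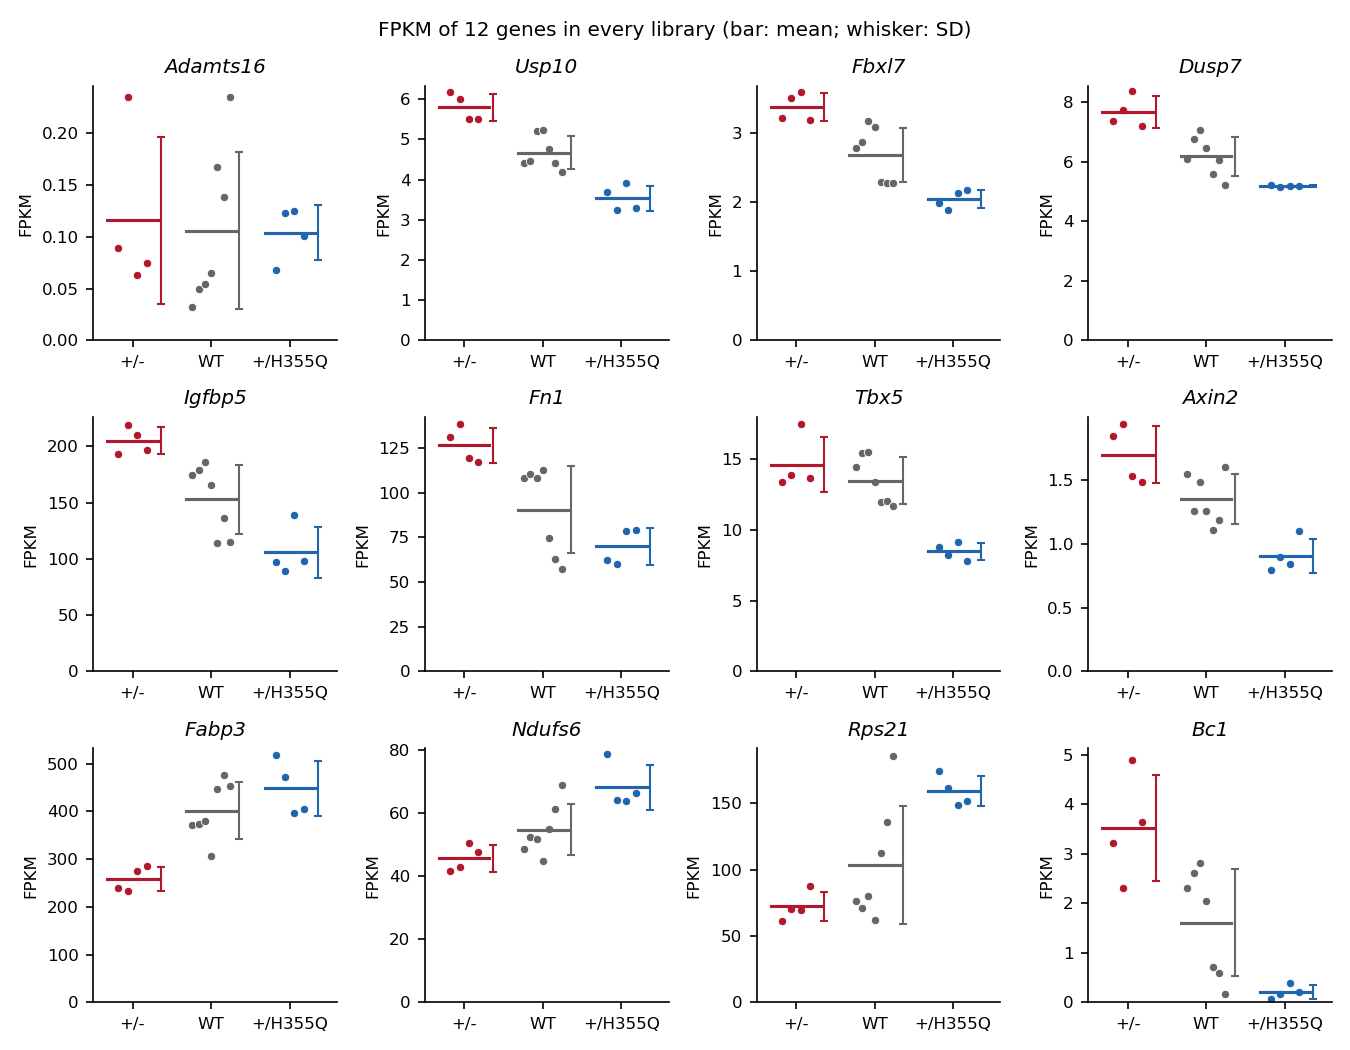
FPKM of 12 genes in each library of the 3 genotypes, with the mean as a bar and the SD as a whisker, all axes from 0. Adamts16 overlaps across groups, Usp10, Fbxl7 and Dusp7 step down from Adamts16+/- through WT to Adamts16+/H355Q, and Fabp3 shows Adamts16+/- below every WT library.

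Matrix genes that passed the test were nearly all higher with the knockout allele. Over 152 tested genes of the matrix lists (structural glycoproteins, collagens, proteoglycans, and the enzymes that build or cut them), 24 rose and 1 fell (16.4% called, against 10% of all genes), and the median difference was 0.19. Their mean level per library still overlapped, at 3.36 to 3.67 with the knockout allele and 3.24 to 3.41 with H355Q, because knockout-allele library 3 was the lowest of its group. WT ran from 3.415 to 3.519. All 4 H355Q libraries were below that range, the highest of them narrowly (3.412), and so was knockout-allele library 3. Knockout-allele libraries 1 and 2 were above it, at 3.54 and 3.67. Without knockout-allele libraries 1 and 2 the median shrank to 0.09 and no member passed. The fibronectin gene Fn1, which encodes the substrate named above, was at 131, 138, 119 and 117 FPKM with the knockout allele and 62.4, 59.9, 78.7 and 79.3 with H355Q. Every knockout-allele library was above the WT range of 57.1 to 112, and the H355Q libraries were inside it. Fn1 was 1.81-fold higher (log2 difference 0.85 ± 0.21 SE, limma adjusted p = 0.0238), a call lost without knockout-allele library 1, 2 or 3 or H355Q library 1 or 2 (adjusted p up to 0.0747). Of 12 genes of fibronectin and its receptors and partners, 3 rose (25% called): Fn1 and the fibulins Fbln1 and Fbln2, which bind it.

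Igfbp5, a secreted IGF-binding protein held in the matrix, was at 193, 219, 210.3 and 197 FPKM with the knockout allele against 97.0, 88.9, 139 and 98.4 with H355Q, and its WT range was 114 to 186. It was 1.96-fold higher (limma adjusted p = 0.0102). Col23a1, a transmembrane collagen, was at 9.27, 9.20, 9.23 and 9.37 FPKM, almost the same in all 4 knockout-allele libraries and above every WT library, against 5.36, 5.64, 6.62 and 5.55 with H355Q (log2 difference 0.64 ± 0.11 SE, limma adjusted p = 0.0102). Collagen chains had 4 of 25 members higher and none lower, and the enzymes and factors of collagen making had 6 of 20 higher and none lower. Those shares were 16% and 30% called, against 10% of all genes. Creb3l1, a membrane-bound transcription factor that drives secretory and collagen genes, was at 7.96, 8.79, 9.86 and 7.48 FPKM against 5.84, 5.06, 5.10 and 4.21. Here the H355Q libraries were the ones outside WT, all below its range of 6.53 to 9.94 (log2 difference 0.70 ± 0.13 SE, limma adjusted p = 0.0102). Biglycan (Bgn), a small proteoglycan of fibrous matrix, had the same layout: 27.9, 33.4, 27.5 and 22.7 FPKM with the knockout allele, 20.1, 18.9, 19.3 and 19.5 with H355Q, and WT from 24.1 to 29.1 (limma adjusted p = 0.0118). Lama5, a laminin chain of basement membranes, was 1.45-fold higher with the knockout allele (limma adjusted p = 0.0102), at 11.01 to 12.4 against 7.70 to 8.72 FPKM.

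Among proteases, Mmp14, the membrane-anchored collagenase, was at 17.1, 18.7, 14.4 and 15.1 FPKM with the knockout allele and 11.6, 11.3, 12.2 and 11.5 with H355Q (log2 difference 0.46 ± 0.10 SE, limma adjusted p = 0.0149). The 4 H355Q libraries were tightly grouped under the lowest WT library, 12.6 FPKM. The ADAMTS family itself moved little, with 1 of 20 tested members called, 5% against 10% of all genes, and a list median of 0.07, which turned to -0.03 without knockout-allele libraries 1 and 2. That member was Adamts17, at 2.85, 3.46, 2.06 and 2.10 FPKM against 1.67, 1.71, 1.82 and 1.82 (log2 difference 0.44 ± 0.12 SE, limma adjusted p = 0.0321). Knockout-allele libraries 1 and 2 carried the higher values, and the call was lost without either of them or any 1 H355Q library (adjusted p up to 0.0926). Timp2, an inhibitor of metalloproteases, was 1.21-fold higher, a call lost without any 1 of the 8 mutant libraries (limma adjusted p 0.0402, up to 0.122).

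Of 19 heart transcription factors 3 rose with the knockout allele and none fell (15.8% called, against 10% of all genes), with a median of 0.30. Tbx5, required for atrial and conduction identity, was at 13.4, 13.9, 17.5 and 13.7 FPKM with the knockout allele and 8.76, 8.21, 9.16 and 7.80 with H355Q. The knockout-allele libraries overlapped WT, and all 4 H355Q libraries were below its range of 11.7 to 15.5 (log2 difference 0.74 ± 0.11 SE, limma adjusted p = 0.00807). Gata5, a zinc-finger factor of endocardium in which variants are linked to bicuspid aortic valve, showed the other layout, with 7.13, 7.32, 7.44 and 6.18 FPKM all above WT (3.08 to 5.25) and 3.51, 2.74, 4.50 and 4.09 with H355Q (log2 difference 0.85 ± 0.15 SE, limma adjusted p = 0.0102). Nr2f2, a nuclear receptor of atrial and venous cells, was 1.63-fold higher (limma adjusted p = 0.0111), at 4.24 to 5.81 against 2.41 to 3.69 FPKM. In the same direction, Hcn4, the pacemaker channel of the sinus node, was at 4.61, 4.87, 6.09 and 5.63 FPKM against 2.86, 3.504, 3.58 and 2.83, above the highest WT library of 4.44 (log2 difference 0.65 ± 0.13 SE, limma adjusted p = 0.0144). These 4 kept the call without any 1 library.

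Valve mesenchyme genes had 4 of 15 members higher and none lower (26.7% called, against 10% of all genes). The median was 0.33, down to 0.05 without knockout-allele libraries 1 and 2. Postn, a matrix gene of the same list, went the other way without a call (log2 difference -0.32, limma adjusted p = 0.0944). Its knockout-allele libraries, 59.0 to 82.3 FPKM, were all below WT (87.9 to 104.9) and overlapped H355Q (74.7 to 104.8). Sox9, the factor of cushion mesenchyme, stood at 4.92, 5.20, 3.40 and 3.01 FPKM with the knockout allele and 2.19, 1.89, 2.97 and 2.66 with H355Q. Libraries 1 and 2 were the high ones, and libraries 3 and 4 were near the top of WT (2.21 to 3.21). The log2 difference of 0.65 ± 0.16 SE (limma adjusted p = 0.0232) was no longer called without knockout-allele library 1 or 2 or H355Q library 1 or 2 (adjusted p up to 0.0756). Knockout-allele libraries 1 and 2 were also the 2 of their group with thymus markers; the part of those markers in the Sox9 result was not tested. Of the cardiac endothelium, 4 of 21 genes rose and 1 fell (23.8% called, against 10% of all genes). Among those that rose was endoglin (Eng), a TGF-beta co-receptor, at 25.1 to 28.7 against 16.5 to 19.9 FPKM (limma adjusted p = 0.0179, lost without knockout-allele or H355Q library 2, up to 0.057). Anpep, an aminopeptidase used as a pericyte marker, kept its call throughout (1.43-fold, limma adjusted p = 0.0111), with all H355Q libraries below WT. It was the 1 called gene of 8 pericyte genes tested (12.5%, against 10% of all genes). Of those 8, 5 had a positive difference, and the lowest difference was -0.69.

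Signalling genes that passed the test were higher with the knockout allele. Across 149 tested genes of the MAPK, TGF-beta and BMP, Wnt, Notch, IGF and related lists, 29 were higher with the knockout allele and none lower. The share called was 19.5%, against 10% of all genes, 37 had a negative difference, and the median was 0.19. Their mean level was 2.96 to 3.08 with the knockout allele and 2.77 to 2.88 with H355Q, and the 4 knockout-allele libraries were also above WT (2.83 to 2.92). Wnt pathway genes had 7 of 27 members higher (25.9% called, against 10% of all genes). Axin2, a feedback inhibitor and direct target of Wnt signalling, was at 1.85, 1.94, 1.53 and 1.49 FPKM with the knockout allele and 0.795, 0.895, 0.839 and 1.10 with H355Q. All H355Q libraries were below WT (1.11 to 1.61; log2 difference 0.64 ± 0.11 SE, limma adjusted p = 0.00911). For Tcf7l1, a DNA-binding repressor of the pathway, values were 6.55, 6.90, 6.84 and 5.05 against 3.93, 3.40, 3.69 and 3.19 FPKM, again with H355Q below WT (log2 difference 0.75 ± 0.12 SE, limma adjusted p = 0.00807). Inhibitors and effectors were both among the members that moved.

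The feedback genes of ERK signalling had 4 of 15 members higher, including Dusp7 (26.7% called, against 10% of all genes). Another was Spred2, an inhibitor of RAF activation, at 6.75, 6.70, 6.10 and 6.68 FPKM against 4.61, 4.62, 5.13 and 4.65 (log2 difference 0.43 ± 0.07 SE, limma adjusted p = 0.00922). Neither allele left the WT range of Spred2, 4.98 to 6.24 FPKM, as a group. Ligands and mediators of TGF-beta and BMP signalling had 7 of 31 members higher (22.6% called, against 10% of all genes). The ligand Tgfb1 was at 3.52 to 4.05 FPKM with the knockout allele against 2.03 to 2.57 (limma adjusted p = 0.0151, 0.0508 without H355Q library 2). Maml1, a co-activator of Notch, was the 1 called gene of 18 in its pathway (5.56%, against 10% of all genes). It was 1.35-fold higher and above WT with the knockout allele (limma adjusted p = 0.0111). Of the IGF axis and imprinted growth genes, 6 of 25 rose (24% called, against 10% of all genes). Igf2bp2, which binds Igf2 mRNA, had 14.7, 15.2, 14.1 and 12.9 FPKM against 10.3, 7.48, 10.6 and 9.13. The knockout-allele libraries were the ones outside WT (7.36 to 10.2; log2 difference 0.58 ± 0.11 SE, limma adjusted p = 0.0122). Chromatin regulators had 9 of 40 members higher and none lower (22.5% called, against 10% of all genes). They are long genes, with a median exon length of 13600 bases against 3848 over all genes tested. How calls ran with length is given below. Smarca4, the ATPase of BAF remodelling complexes, was 1.39-fold higher (limma adjusted p = 0.0135).

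**Figure D3:**
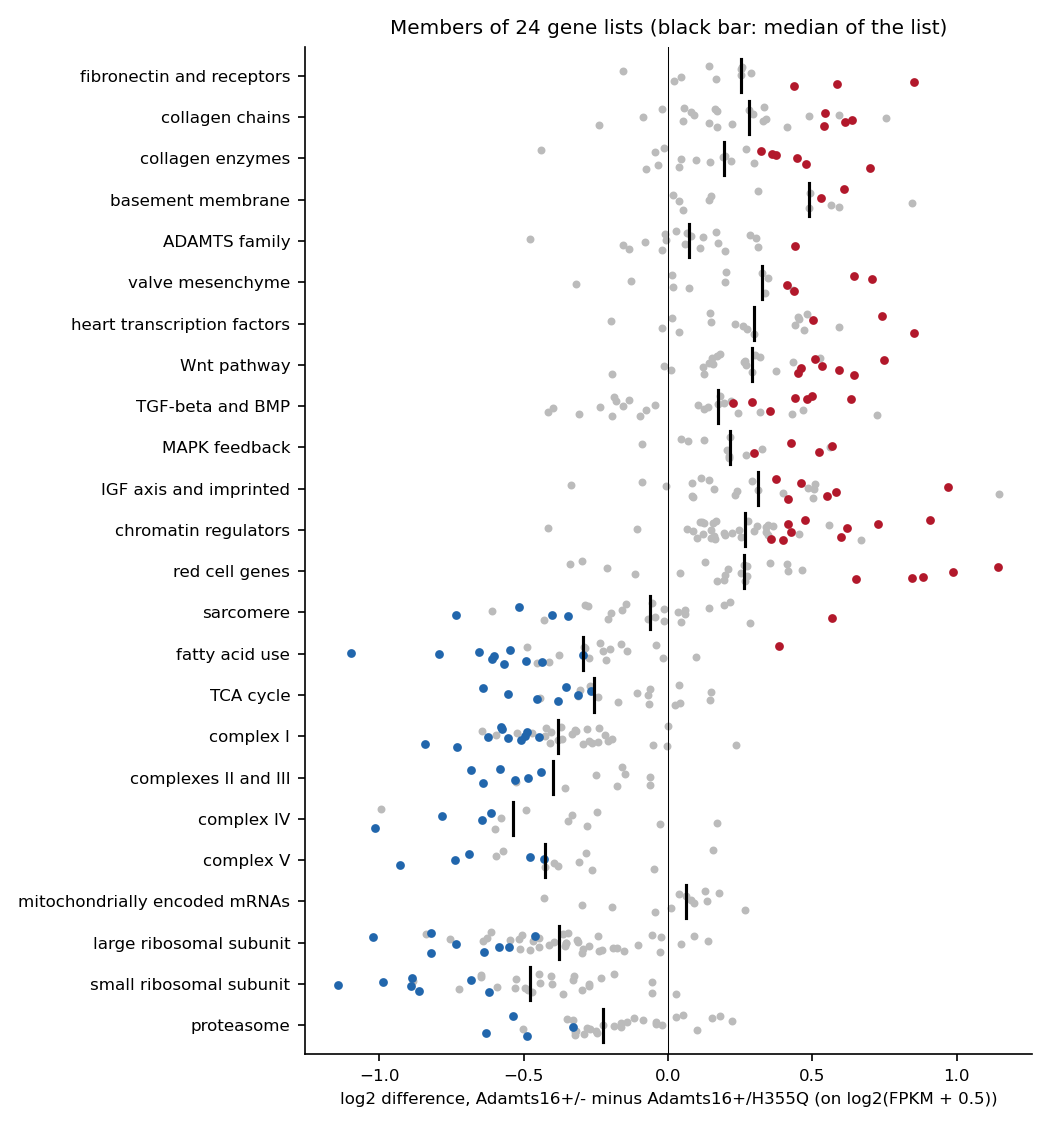
Log2 difference of each tested member of 24 gene lists, knockout allele minus H355Q, with called members in red (higher) or blue (lower), others grey and the list median as a black bar. Matrix, signalling and transcription factor lists lie mostly right of 0 and nuclear-encoded mitochondrial and ribosomal lists left of it, while the 13 mitochondrially encoded mRNAs centre on 0.06.

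Genes of fatty acid uptake and oxidation were lower with the knockout allele, and here it was the knockout allele that left WT. Of 27 members 10 fell and 1 rose (40.7% called, against 10% of all genes), and the median was -0.29. All knockout-allele libraries were below WT in 10 members, against 2.39% of all genes, whereas no member had the H355Q libraries outside. Fabp3, the fatty acid carrier of cardiomyocytes, stood at 240.5, 232, 275 and 286 FPKM with the knockout allele and 519, 473, 398 and 406 with H355Q. WT libraries ranged from 306 to 476, all above the knockout allele (log2 difference -0.79 ± 0.13 SE, limma adjusted p = 0.00922). Fabp4, the carrier found in capillary endothelium, was at 9.79, 9.84, 12.01 and 10.5 FPKM against 28.0, 34.5, 16.7 and 17.4, with WT at 21.0 to 32.8 (log2 difference -1.10 ± 0.21 SE, limma adjusted p = 0.0111). H355Q libraries 3 and 4 were lower than H355Q libraries 1 and 2 for Fabp4, and still above every knockout-allele library. Cd36, the membrane importer, followed at 24.6 to 32.6 against 36.4 to 53.3 FPKM (limma adjusted p = 0.0173, lost without knockout-allele library 1 or 2 or H355Q library 2, up to 0.057). The list's mean level was 4.22 to 4.42 with the knockout allele, 4.51 to 4.84 with H355Q and 4.53 to 4.86 in WT, so only the knockout-allele libraries stood below the others. Txnip, a thioredoxin inhibitor that restrains glucose uptake, was at 57.0 to 63.1 against 76.6 to 88.5 FPKM and below WT in the same way (limma adjusted p = 0.0111).

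The contractile apparatus was divided. Of 26 sarcomere genes 4 fell and 1 rose (19.2% called, against 10% of all genes), and the median was -0.06. The members that fell were the troponin Tnnc1 and the light chains Myl3, Myl2 and Myl4, the last being a gene of the atrial list. Myl3, the ventricular essential light chain, was at 539, 481, 576 and 577 FPKM against 1033, 897, 842 and 845 (log2 difference -0.73 ± 0.18 SE, limma adjusted p = 0.022). Its H355Q libraries were all above the WT range of 437 to 836 FPKM, and the knockout-allele libraries were inside it. The member that rose was Myh6, the atrial-type myosin heavy chain, at 716, 615, 907 and 752 against 489, 477, 540.5 and 490.2 FPKM, with the H355Q libraries below WT (log2 difference 0.57 ± 0.15 SE, limma adjusted p = 0.0307). The Myl3 call was lost without knockout-allele or H355Q library 1 or 2 (adjusted p up to 0.067), and that of Myh6 without knockout-allele library 1, 3 or 4 or H355Q library 1, 2 or 4 (up to 0.0865). Of 12 atrial genes 3 rose and Myl4 fell, and of 10 ventricular genes 4 fell and Irx5 rose. Those shares were 33.3% and 50% called, against 10% of all genes. Fhl2, a sarcomere-associated LIM protein, was at 65.8, 61.1, 67.3 and 72.7 FPKM against 130.4, 122, 97.5 and 89.4, below WT with the knockout allele (log2 difference -0.70 ± 0.14 SE, limma adjusted p = 0.0126). A pseudogene, Gm8210, lies on the opposite strand of Fhl2 and differed the other way, and whether the authors' counting used strand is not given in the sources used here.

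Nuclear-encoded respiratory chain genes were lower with the knockout allele. Of 80 tested subunits of complexes I to V, 25 fell and none rose (31.2% called, against 4.33% of all genes lower), 77 had a negative difference, and the median was -0.41. Mean levels did not overlap, at 5.60 to 5.90 with the knockout allele and 6.003 to 6.39 with H355Q, while WT ran from 5.67 to 6.29. Knockout-allele libraries 1 and 2 (5.604 and 5.614) lay below WT and H355Q library 1 (6.395) above it, and the others were inside. Ndufs6, a complex I subunit, was at 41.6, 42.8, 50.7 and 47.6 FPKM with the knockout allele and 78.8, 64.1, 63.8 and 66.5 with H355Q (log2 difference -0.57 ± 0.12 SE, limma adjusted p = 0.0148); its WT range was 44.8 to 68.9. Ndufa2, another complex I subunit, was 1.79-fold lower at 34.4 to 44.8 against 65.2 to 88.0 FPKM (limma adjusted p = 0.0152). Atp5k, a subunit of the ATP synthase membrane part, was 1.61-fold lower, at 61.5 to 78.4 against 102 to 125 FPKM (limma adjusted p = 0.0135). These 3 kept the call without any 1 library. Cox5a of complex IV had the largest fold of the named subunits, 2.02-fold lower, with 26.0, 28.2, 30.7 and 35.7 against 78.5, 59.2, 53.4 and 55.9 FPKM (limma adjusted p = 0.0179, lost without knockout-allele library 1 or 2 or H355Q library 2, up to 0.055). In contrast, none of the 13 mRNAs encoded by the mitochondrial genome was called, and their median was 0.06 (-0.03 after quantile normalization). Of 22 genes of the citric acid cycle 7 fell and none rose (31.8% called, against 10% of all genes), with a median of -0.25. Tomm7, a subunit of the outer membrane import pore, was at 11.5, 13.8, 13.4 and 15.4 FPKM against 30.7, 29.7, 28.2 and 25.7 (log2 difference -1.06 ± 0.21 SE, limma adjusted p = 0.0126).

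Cytosolic ribosomal protein genes showed the same direction with no allele outside WT as a group. Of 78 tested genes 15 fell and none rose (19.2% called, against 10% of all genes), 74 had a negative difference, and the median was -0.44. The mean level was 6.84 to 7.08 with the knockout allele and 7.36 to 7.54 with H355Q, inside a WT range of 6.79 to 7.70. Rps21 stood at 61.3, 70.5, 69.5 and 87.4 FPKM with the knockout allele and 174, 161, 149 and 152 with H355Q (log2 difference -1.14 ± 0.27 SE, limma adjusted p = 0.0209, lost without knockout-allele library 1, 2 or 3 or H355Q library 1 or 2, up to 0.0637). WT libraries alone ran from 62.0 to 185, as wide as the gap between the alleles. Rpl27a was at 58.7, 60.8, 67.0 and 64.6 against 106, 106, 100.1 and 107 FPKM and Rps27 at 76.0, 83.8, 87.8 and 112 against 192, 177, 168 and 170.3. Both were called (limma adjusted p = 0.0263 and 0.041), and both calls were lost without any of knockout-allele libraries 1 to 3 or H355Q libraries 1, 2 and 4 (Rps27 also without H355Q library 3; up to 0.0716 and 0.108). Ribosomal protein mRNAs are known for a pyrimidine tract at their start that ties their translation to growth signals, so promoters of 6 called members were read from 20 bases before to 30 after the RefSeq start site (GRCm38.p6), with CTTTC or CTTTT in capitals. Rpl39, Rpl11 and Rpl23 held neither string there, and the 3 that did are printed. The regions are chr3:90213619-90213668 on the minus strand, chr7:109519175-109519224 on the plus strand and chr10:23787180-23787229 on the minus strand.
Rps27: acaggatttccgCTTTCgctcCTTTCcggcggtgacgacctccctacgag
Rpl27a: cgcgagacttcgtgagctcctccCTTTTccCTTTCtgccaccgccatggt
Rps12: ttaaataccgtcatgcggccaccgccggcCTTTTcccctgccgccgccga

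CTTTC or CTTTT was sought on the sense strand, from 10 bases before to 20 after the start, in any promoter of a gene. It was found in 18 of 58 ribosomal protein genes with a promoter in the table (31%). The share was 7.77% over all 27025 genes with a promoter and 7.35% over respiratory chain genes. A match is a string of letters, not a measured site. Of 96 pseudogenes with a ribosomal protein symbol 30 were lower and 4 higher (35.4% called, against 10% of all genes). Processed pseudogenes as a whole were also called often, 97 higher and 121 lower of 897 (24.3%). No copy was compared with its own parent gene. Rps15a-ps5 had the largest called fall of any gene, -1.88 on the log2 scale. Because such copies are nearly identical to their parents, reads could have been split between them, and values of both are uncertain. Zfas1, a non-coding host of small nucleolar RNAs whose transcript carries a tract of the same kind, was at 5.25, 5.93, 5.55 and 6.51 FPKM against 11.5, 12.5, 11.4 and 11.5 (log2 difference -0.96 ± 0.19 SE, limma adjusted p = 0.0135) and kept the call without any 1 library. Of 23 translation factors 4 rose and none fell (17.4% called, against 10% of all genes), while 9 had a positive difference and the median was -0.11. Among those that rose was Pabpc1, the poly(A)-binding protein, at 84.0 to 106 against 60.1 to 71.1 FPKM (limma adjusted p = 0.0155, 0.0539 without H355Q library 2).

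**Figure D4:**
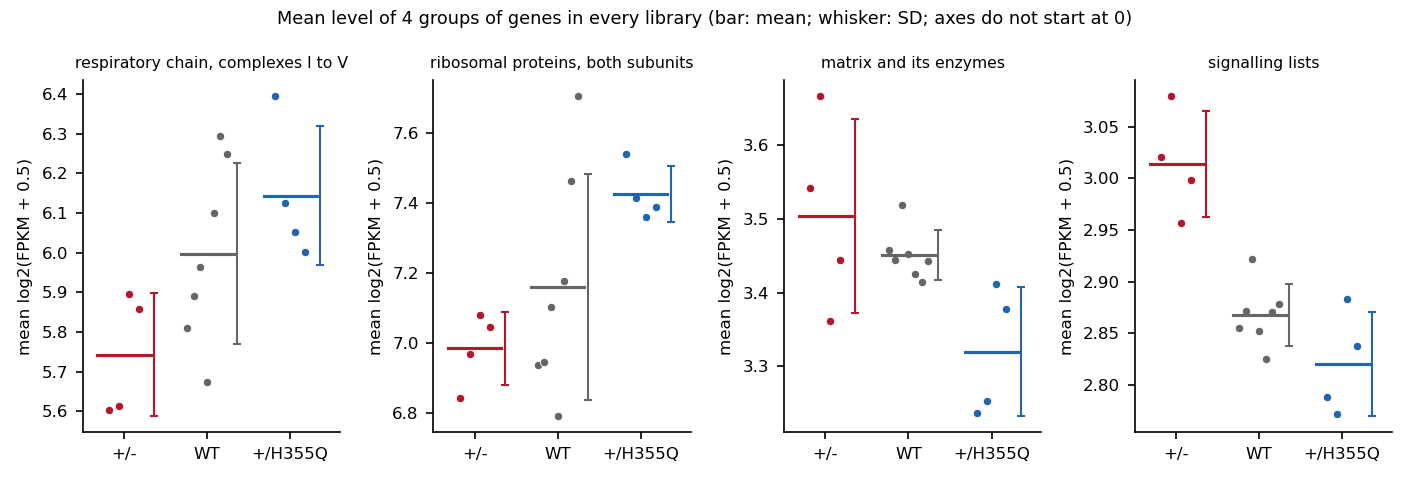
Mean log2(FPKM + 0.5) of 4 groups of genes in each library, with the mean as a bar and the SD as a whisker; axes do not start at 0. Ribosomal protein levels separate the alleles inside a broad WT spread, and respiratory chain levels separate them with some libraries of each allele beyond WT. Signalling genes put Adamts16+/- above WT (2.96 to 3.08 against 2.83 to 2.92), and matrix genes overlap between the alleles.

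Chaperones of the cytosol and endoplasmic reticulum had 3 of 24 members higher and none lower, 12.5% called and so near the 10% of all genes. In 9 members all knockout-allele libraries were above WT, against 3.40% of all genes, and in 2 all H355Q libraries were. The list median between the alleles was 0.06. Hspa1a, the inducible HSP70, was at 1.60, 1.31, 1.34 and 1.09 FPKM with the knockout allele, above the WT range of 0.699 to 0.998, and at 0.732, 0.813, 0.951 and 0.755 with H355Q (log2 difference 0.48 ± 0.10 SE, limma adjusted p = 0.0139). Its neighbour Hspa1b was at 1.74, 1.56, 1.55 and 1.28 against 1.06, 0.885, 1.17 and 0.993 (limma adjusted p = 0.0273, lost without knockout-allele library 1, 2 or 3 or H355Q library 1, 2 or 4, up to 0.0855). Calreticulin (Calr), a calcium-binding chaperone of the endoplasmic reticulum, was at 237, 239.7, 225 and 231 against 166, 139.8, 186 and 178 FPKM (limma adjusted p = 0.0155, 0.0539 without H355Q library 2), with the knockout allele above WT (151 to 212). The Hspa1a and Hspa1b promoters are printed to show the heat shock element as GAANNTTC in capitals and how alike the genes are, since reads of such a pair cannot be told apart with confidence. They lie at chr17:34972217-34972286 and chr17:34959299-34959368 on the minus strand (RefSeq, GRCm38.p6), and the 70 bases are the same letter for letter.
Hspa1a: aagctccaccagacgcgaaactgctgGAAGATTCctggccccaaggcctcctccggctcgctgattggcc
Hspa1b: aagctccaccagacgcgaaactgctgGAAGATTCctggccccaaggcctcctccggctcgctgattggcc

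Across 300-base promoters, GAANNTTC or TTCNNGAA, read on the sense strand, occurred in 6 of 21 chaperone genes (28.6%) and in 17% of all genes with a promoter. Each motif is its own reverse complement, so the other strand adds no match.

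Red cell genes that passed the test were higher with the knockout allele. Of 24 tested 5 rose and none fell (20.8% called, against 10% of all genes), with a median of 0.27. Slc4a1, the anion exchanger of the red cell membrane, was at 24.4, 19.3, 24.6 and 15.3 FPKM with the knockout allele and 10.96, 7.72, 10.7 and 7.30 with H355Q (log2 difference 1.14 ± 0.20 SE, limma adjusted p = 0.0102). Kel, a blood group endopeptidase, was at 4.88, 4.45, 5.10 and 3.42 against 1.77, 1.41, 2.75 and 2.18 FPKM, and Ermap, a red cell adhesion protein, at 2.82, 2.04, 2.69 and 1.93 against 0.846, 0.872, 1.20 and 1.29 (limma adjusted p = 0.00911 and 0.00807). For both, the knockout-allele libraries were above WT, 1.51 to 2.57 and 0.647 to 1.07 FPKM, while H355Q overlapped it. Globins were not called (0 of 7). The embryonic alpha-like globin Hba-x was at 624, 522, 690.4 and 372 FPKM with the knockout allele, 184, 60.8, 282 and 184 with H355Q and 20.6 to 258 in WT, so that all 4 knockout-allele libraries were highest, as they were for Hbb-bh1, an embryonic beta-like globin (47.3 to 56.8 against 7.54 to 45.5 and 2.76 to 20.2 FPKM). Hbb-y, another embryonic beta-like globin, overlapped between the alleles, at 3866 to 5056 FPKM with the knockout allele and 679 to 5110.0 with H355Q, where library 3 was above every knockout-allele library. Adult Hba-a1 overlapped in all groups, at 4777 to 8427 FPKM with the knockout allele and 3493 to 8663 with H355Q. With the mean level of red cell genes and globins as a covariate no call remained and the list medians given above kept their sign. Because that level did not overlap between the alleles, its part and that of the allele are not assigned here. Whether it measures blood content was not tested.

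Non-coding genes included the largest called rise. Bc1, a short cytoplasmic RNA best known from rodent neurons, was at 3.21, 2.32, 4.89 and 3.65 FPKM with the knockout allele and 0.0626, 0.178, 0.391 and 0.215 with H355Q, without overlap (log2 difference 2.48 ± 0.43 SE, limma adjusted p = 0.0102). WT libraries 1 to 7 read 2.31, 2.62, 2.81, 2.06, 0.721, 0.588 and 0.178, so WT covered most of the distance by itself. At 168 bases (chr7:144914470-144914637) the gene is shorter than many library fragments, and its level depends on size selection, which was not tested. Mir351, the gene of a microRNA, was at 5.33, 5.56, 3.09 and 7.82 FPKM against 11.7, 14.6, 15.7 and 14.7 (log2 difference -1.35 ± 0.31 SE, limma adjusted p = 0.0193, lost without knockout-allele library 1, 2 or 3 or H355Q library 2, up to 0.059). Such libraries read the precursor or its host transcript, not the mature microRNA, whose strands are printed below from RefSeq (GRCm38.p6, chrX:53053315-53053338 and chrX:53053276-53053296, minus strand) with the seed, bases 2 to 8, in capitals. The 5p seed is that of the miR-125 family, which pairs with target messages, and no mature level was measured here.
mmu-miR-351-5p: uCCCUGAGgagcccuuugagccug
mmu-miR-351-3p: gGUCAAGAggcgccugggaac

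The mitochondrial leucine tRNA mt-Tl1 was at 1144 to 1231 FPKM with the knockout allele against 719 to 825 with H355Q (log2 difference 0.65 ± 0.14 SE, limma adjusted p = 0.0152), while none of the mitochondrial mRNAs was called. WT libraries alone ran from 684.5 to 1216 FPKM. It was the 1 called gene of 21 mitochondrial tRNAs tested (4.76%, against 10% of all genes), whose median was 0.36. The gene is only 75 bases long, and the part of size selection in its level was not tested.

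Markers of tissues outside the heart varied by library. Of 10 skeletal muscle genes tested 2 rose (20% called, against 10% of all genes). Among them was Myog, a myogenic factor absent from heart muscle, at 0.528, 5.20, 1.57 and 3.02 FPKM with the knockout allele and 0.391, 0.670, 0.257 and 0.443 with H355Q. The list's mean level was 1.90, 3.29, 2.58 and 3.01 with the knockout allele and 1.91 to 2.35 with H355Q, so knockout-allele libraries 2 to 4 carried it. The Myog call (log2 difference 1.46 ± 0.36 SE, limma adjusted p = 0.0246) was lost without knockout-allele library 2 or 4 or any 1 H355Q library (up to 0.0633). None of the 4 thymus genes or 10 neuron genes tested was called, although H355Q library 2 had the highest level of neuron genes, 2.84 against at most 1.91 in the others, and Foxn1, the defining factor of thymic epithelium, was at 0 in H355Q libraries 1 and 3 and knockout-allele library 4. When the libraries with thymus markers were left out together (knockout-allele 1 and 2, H355Q 2 and 4, WT 7), 16 genes were called, with 2 libraries a group. In that smaller fit the respiratory chain kept a median of -0.35 and ribosomal proteins -0.36, while that of matrix genes was 0.07, and no member of these lists or of the signalling lists passed the test.

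Gene length moved with the difference. Called genes higher with the knockout allele had a median exon length of 4602 bases and lower ones 2044, against 3848 over all genes tested. Over 10 equal bins of length, 4.35% of the shortest genes were higher and 9.62% lower, and of the longest 6.67% were higher and 0.726% lower. The slope of a library's log2 level on log2 length was 0.008 to 0.027 in the knockout-allele libraries and -0.028 to -0.008 in the H355Q libraries, without overlap, and -0.041 to 0.031 in WT. Respiratory chain and ribosomal protein genes are short (median 1631 and 1776 bases), and matrix and signalling genes longer (6040 and 4219 bases). With the length trend taken out of each library, 1951 genes were called, 1003 higher and 948 lower. The respiratory chain then had 28 members lower and a median of -0.33, the ribosomal proteins 29 lower and 1 higher with -0.35, and matrix genes 26 higher and 3 lower with 0.17.

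**Figure D5:**
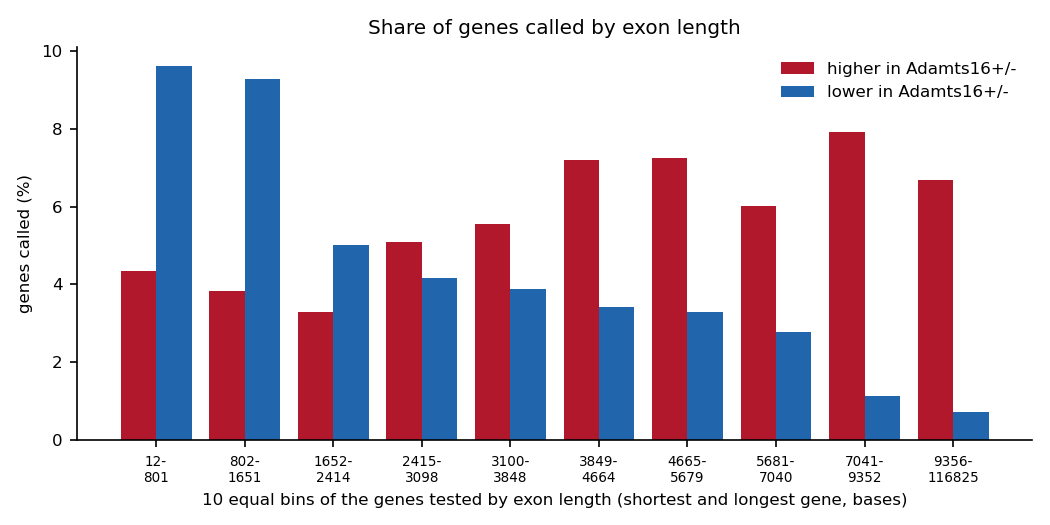
Percent of genes called higher (red) or lower (blue) with the knockout allele in each of 10 equal bins of exon length, given by the shortest and longest gene in bases. The share called lower falls from 9.62% in the bin of shortest genes to 0.726% in that of the longest.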

How the data were processed

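Per the labels' protocols, TRIzol was used to extract RNA from whole E14.5 mouse hearts, and a VAHTS Universal V6 kit to build the libraries. The authors deposited 1 table of FPKM values for the 15 libraries. DESeq2, HTSeq, HISAT2, fastp and R 3.2.0 appear in the submitters' processing notes, with no role or order. Which tool made the FPKM values, on which build and annotation, and with or without strand, is not given in the sources used here. Of 55335 gene IDs, 55154 matched a GENCODE vM21 (GRCm38) gene, which gave symbols, lengths and positions. Low FPKM values are multiples of what 1 fragment is worth, which gave each library's implied depth, but only 58.2 to 69.1% of low values came out whole (within 0.1 of a step), so no count test was run. No 2 libraries were the same (correlation 0.951 to 0.986).

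The 15172 genes that averaged 0.5 FPKM or more across the 15 libraries were tested on log2(FPKM + 0.5) with limma 3.58.1 (R 4.3.3, variance trend), all 15 libraries in 1 fit, and p-values were adjusted by Benjamini-Hochberg over all 15172 genes. Fold changes on that scale understate the change of low genes. The remaining steps used Python 3.11.15. Adamts16, under the filter, was tested by exact permutation. A library's level of a gene list is the mean of its members' log2 values. In simulated data of the same size, 12, 60, 88 and 98% of genes changed by 1.25, 1.5, 2 and 3-fold were recovered (50 genes each), with 3 false calls. The simulated noise was independent between genes, without the differences that real libraries share across many genes. The false calls therefore do not measure the error rate in these data. The members compared and the 62 gene lists were chosen with earlier results of these data known. Genes were named by rule: the 10 of largest fold in each direction among protein-coding genes of at least 1 FPKM, the 5 of smallest p at 50 FPKM or more, genes with the alleles on opposite sides of WT, up to 3 called members of smallest p a list, 3 non-coding genes of largest fold in each direction, and Adamts16, Fn1 and Sox9. A few others (Rps12, Rpl11, Rpl23, Rps15a-ps5, Hba-x, Hbb-bh1, Hbb-y, Hba-a1, Xist, Ddx3y, Foxn1, Gm8210, Postn, Myl2 and Myl4) were named after their values were seen. A few values are not reported here. Alternatives covered the pseudocount, the filter, scaling, the libraries in the fit, library weights, gene length, gene class, a red cell covariate, a replicate block and single libraries. Promoter and microRNA sequences are from RefSeq (GRCm38.p6), and the Adamts16 codon is from a GENCODE vM21 transcript.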

Additional observations from a re-analysis of the deposited data

Results flagged for a closer look

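Of 396 groups of 4 or 7 libraries examined, 1 for each named gene and genotype, 21 had a library far from the rest of its group, its gap to the nearest library being a larger share of the group's range than Dixon's 95% criterion allows. Chance alone gives about 1 in 20 groups, which is close to the number found. Of the 21, 19 are given here. WT library 7 had 4 of these values, all high: Tomm7 at 32.5 FPKM (others 12.5 to 19.2), Rplp1 at 822.8 (294 to 496), Rps20 at 39.8 (17.0 to 26.6) and Zfas1 at 14.2 (5.72 to 8.75). These are genes of the groups that were lower with the knockout allele, and that library also carried the highest thymus markers. WT library 4 stood apart for Kel at 2.57 FPKM and Cald1 at 19.8, and WT library 6 for Tnnt3, a skeletal muscle troponin, at 4.55.

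Among the knockout-allele libraries, library 3 was high for the heart transcription factor genes Tbx5 at 17.5 FPKM and Srf at 29.4 and low for Spred2 at 6.10. Library 2 was high for Nid2, a basement membrane glycoprotein, at 50.9 FPKM. In library 4 the chromatin remodeller Srcap was low, at 4.97 FPKM against 7.27 to 7.67 in the others.

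Among the H355Q libraries, library 1 was high for Atp5g3, a subunit of ATP synthase, at 179 FPKM, for Rps20 at 48.5 and for Dusp6 at 10.01. Library 3 was high for Spred2 at 5.13 FPKM and low for Rpl27a at 100.1. Library 2 was high for Zfas1 at 12.5 FPKM and low for Nkd1, an inhibitor of Wnt signalling, at 1.48.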

How the results depend on the processing

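Of the 1524 calls (867 higher, 657 lower), 1483 were also called among the 3021 (1429 higher, 1592 lower) found with only the 8 mutant libraries in the fit. Library weights gave 4352 (2011 and 2341), no filter on low values 580 (406 and 174, over 37951 genes), equal FPKM sums 377 lower genes, and the red cell covariate 0 in either direction. Leaving out 1 library gave 285 (without H355Q library 2) to 2485 (without WT library 7), with 198 to 1206 higher and 87 to 1279 lower. Alternatives chosen after seeing the data left out libraries with markers of other tissues: without knockout-allele libraries 1 and 2, 6 genes were called (3 higher, 3 lower); without H355Q libraries 2 and 4, 2 higher and 0 lower (limma; 2673 at an unadjusted p under 0.05); and without these 4 and WT library 7, 16 (10 and 6). Median of ratios scaling gave 1486 (713 and 773) and moved the genes with 1 allele outside WT to 125, 72 and 80, as given above. The counts under quantile normalization (1867), the length trend (1951), other pseudocounts (1528 and 1514), a mean of 1 FPKM (1538), no variance trend (1431) and protein-coding genes (1220) were within 1.5 times. None of the 132 called genes picked by rule changed direction under any of these alternatives. That count leaves out Adamts16 and the genes named after their values were seen. The cause of the moves was not tested.

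The shared numbers did not pair the libraries: same-numbered pairs correlated at -0.23 to 0.21, other pairs at -0.29 to 0.31, and a replicate block in the 8-library fit gave 1800 calls (829 and 971). Implied depth of 38 to 59 M fragments limits genes below 1 FPKM most, Adamts16 among them.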

Other observations

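Further groups had a share of calls near that of all genes. Of 31 proteasome genes 4 fell with the knockout allele and none rose (median -0.23), and of 40 mitochondrial ribosome genes 5 fell and none rose (median -0.19), 12.9% and 12.5% called against 10% of all genes, and no member had either allele wholly outside WT. Psma5, a core subunit of the proteasome, was at 43.3, 48.0, 51.3 and 52.3 FPKM with the knockout allele and 79.0, 75.2, 70.1 and 77.8 with H355Q (limma adjusted p = 0.0374), and its call was lost without any of knockout-allele libraries 1 to 3 or any 1 H355Q library (up to 0.102). Mean interferon gene levels did not overlap between the alleles, 2.13 to 2.37 with the knockout allele and 2.41 to 3.10 with H355Q, against 2.03 to 2.73 in WT, and 1 of 16 members was called. That member, Ifit3, which restrains viral replication, was at 0.409 to 0.663 FPKM against 0.807 to 2.51 (limma adjusted p = 0.019, 0.0551 without H355Q library 2). Macrophage genes (14) and epicardial and fibroblast genes (17) had no call, against 10% of all genes.

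Other genes not described above also had only the H355Q libraries outside WT. Hmgn2, a nucleosome-binding protein, was at 93.9, 81.2, 86.2 and 84.3 FPKM with H355Q, above the WT range of 39.0 to 63.6, and between 49.1 and 53.3 with the knockout allele (log2 difference -0.76 ± 0.12 SE, limma adjusted p = 0.00807), a call kept whichever library was left out. Pgk1, a glycolytic kinase and the 1 called gene of 21 in that pathway, was at 461, 379, 411 and 432 FPKM with H355Q against 288 to 340 with the knockout allele and 290 to 356 in WT (limma adjusted p = 0.0186, lost without knockout-allele library 1 or 2 or H355Q library 1, up to 0.061).

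Plagl2, a zinc-finger transcription factor, was split inside 1 genotype. It stood at 7.53 and 8.96 FPKM in H355Q libraries 1 and 3 and at 0.754 and 1.08 in H355Q libraries 2 and 4, while the knockout-allele libraries lay between 10.1 and 11.3 and WT between 5.60 and 9.57. H355Q libraries 2 and 4 are also those with thymus markers. The gene was called (log2 difference 1.69 ± 0.50 SE, limma adjusted p = 0.045), and the call was lost in 10 of the 15 fits that leave out a single library (up to 0.128).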
